A study of Danio rerio with 17 samples.

Results

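The comparison described here is the response to overfeeding that 2 lines of transgenic zebrafish had in common. It was taken as the mean of 2 differences on the log2 scale, each measured within 1 line and 1 batch: fish made obese by diet (DIO) against fish on a normal diet (NOR) in HBx,src, and the same in HBx,src,p53-. It rests on 11 of the 17 liver arrays of the study, with 3 NOR and 3 DIO arrays in HBx,src and 2 NOR and 3 DIO arrays in HBx,src,p53-. All probe sets of the array entered the comparison. The genes described are those that moved in the same direction in both lines, because a mean can be carried by 1 line alone.

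The fish were of the AB strain background and labelled female, and the labels give their age as 6 months. Per the labels the diets began at 3 months of age and ran for 2 months, with about 6.9 mg of Artemia cysts per fish per day for NOR and 83 mg for DIO. These ages and durations do not add up to 6 months, and the difference is not resolved in the sources used here. NOR and DIO fish alike are labelled as having had no treatment (mock), and no irradiation is named in their labels. All groups carried the hepatitis B virus X protein (HBx, fused to mCherry) and the src oncogene, each under the fabp10a promoter, which is active in hepatocytes, together with myl7:EGFP, a green marker of the heart. HBx,src,p53- fish were in addition heterozygous for p53 (p53-/+), so 1 intact copy of this tumour suppressor remained. None of the 17 arrays held a group without HBx and src. Nothing in the sources says whether an array holds 1 fish or a pool, so the p-values measure the spread between arrays. The remaining 6 arrays, of DIO fish given Oligo-Fucoidan, carried no weight in the comparison. They entered the estimate of that spread, and the mean signals that picked each gene's probe set and its signal level group.

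The liver takes up dietary nutrients and secretes most plasma proteins, so its cells carry large amounts of the machinery that makes, folds, transports and degrades proteins. Ribosomes are assembled in the nucleolus, secreted proteins are folded in the endoplasmic reticulum (ER) and carried to the Golgi, and the proteasome degrades proteins tagged with ubiquitin. Feeding also acts on the liver through insulin signaling, through mTORC1, a kinase at the lysosome that senses amino acids, and through the circadian clock. The gene roles named below are those known for the proteins in mammals or yeast.

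The median log2 signal of an array was 2.095 to 2.212 for HBx,src and 2.604 to 2.684 for HBx,src,p53-, with interquartile ranges of 1.798 to 2.028 and 2.943 to 3.191. An array correlated with the others of its group at a mean Spearman rho of 0.805 to 0.8465 in HBx,src and of 0.9 to 0.9163 in HBx,src,p53-, so the replicates of HBx,src were less alike. Batch 1 held only HBx,src and batch 2 only HBx,src,p53-, and line and batch cannot be told apart. Levels were therefore not compared between the lines. The 14 measured markers of hepatocytes had a median log2 signal of 11.47 to 11.89 in the 11 arrays, and 0 of them passed the test of the diet. Their median change was 0.17 log2 units. The gene fabp10a, whose promoter drives both transgenes, changed by -0.19 ± 0.16 (standard error, SE) with an adjusted p of 0.663 by limma. The yolk protein gene vtg2, which is made by the liver of females, was at 13.84 to 14.04 in all 11 arrays.

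Overfeeding was accompanied by changes in 238 of 20908 genes when both lines were averaged, of which 78 were higher (0.373%) and 160 lower (0.765%) in DIO. This was 1.14% of the genes, at a Benjamini-Hochberg adjusted p under 0.05 by limma over all 75212 probe sets, each gene being read from its brightest probe set. Of the 238 genes, 232 (1.11% of all genes) had the same direction in both lines, 75 of them higher (0.359%) and 157 lower (0.751%) in DIO, and 6 (0.0287%) had opposite directions. In 139 genes (0.665%) the NOR and DIO arrays did not overlap in either line, with 31 genes higher (0.148%) and 108 lower (0.517%). As a mean over lines, these 139 genes changed by 0.49 to 3.11 log2 units upward and by 0.53 to 2.01 log2 units downward. The smaller of the 2 changes within a line was 0.14 to 2.80 upward and 0.29 to 1.57 downward, so some genes hardly moved in 1 line. An unadjusted p under 0.05 in both lines, with the same direction, was found for 0.598% of all genes among those called, 25 higher (0.12%) and 100 lower (0.478%). Among all probe sets 794 (1.06%) were called, 286 higher (0.38%) and 508 lower (0.675%), and 732 (0.973%) had the same direction in both lines. At the threshold named in the study's methods, a 2-fold change with an unadjusted p under 0.05, 768 genes (3.67%) passed for the mean, 191 higher (0.914%) and 577 lower (2.76%). At that p without the fold, 3837 genes (18.4%) passed, 1261 higher (6.03%) and 2576 lower (12.3%).

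The lines contributed unequally to this mean. Alone, HBx,src,p53- had 628 genes (3%) and 2192 probe sets (2.91%) that passed, and HBx,src had 0 genes and 5 probe sets (0.00665%), against 1581 genes (7.56%) at an unadjusted p under 0.05 in limma. Of the 238 called genes, 164 were also called in HBx,src,p53- alone and 74 in neither line alone, and 195 had the larger change in HBx,src,p53-. The log2 signals also spread wider there, with interquartile ranges of 2.943 to 3.191 against 1.798 to 2.028 in HBx,src. Sizes of change may thus not be on like scales in the lines, and the part of this was not tested. The smaller number of genes called in HBx,src is no test of a difference between lines. That difference itself was called for 13 genes (0.0622%) and 81 probe sets (0.108%). Over all 20908 genes, which are not independent replicates, the changes in the lines correlated with a Pearson r of 0.23 and a Spearman rho of 0.23, given as a description. The diet arrays of 1 line are not used in the other, and the lines share only the estimate of the spread and the choice of probe set.

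Genes at an unadjusted p under 0.05 in each line were counted as well. There were 436 such genes with the same direction (2.09%), 64 higher (0.306%) and 372 lower (1.78%), and 70 with opposite directions (0.335%). By probe sets, 903 went the same way (1.2%) and 230 opposite ways (0.306%), so 79.7% of those that passed in both lines had the same direction, against 54.6% of all probe sets. When the larger of the 2 p-values was adjusted over all probe sets, 0 genes and 0 probe sets passed and the smallest adjusted p was 0.406. No gene therefore passed a test in both lines at once, and the calls below are calls of the mean.

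**Figure D1:**
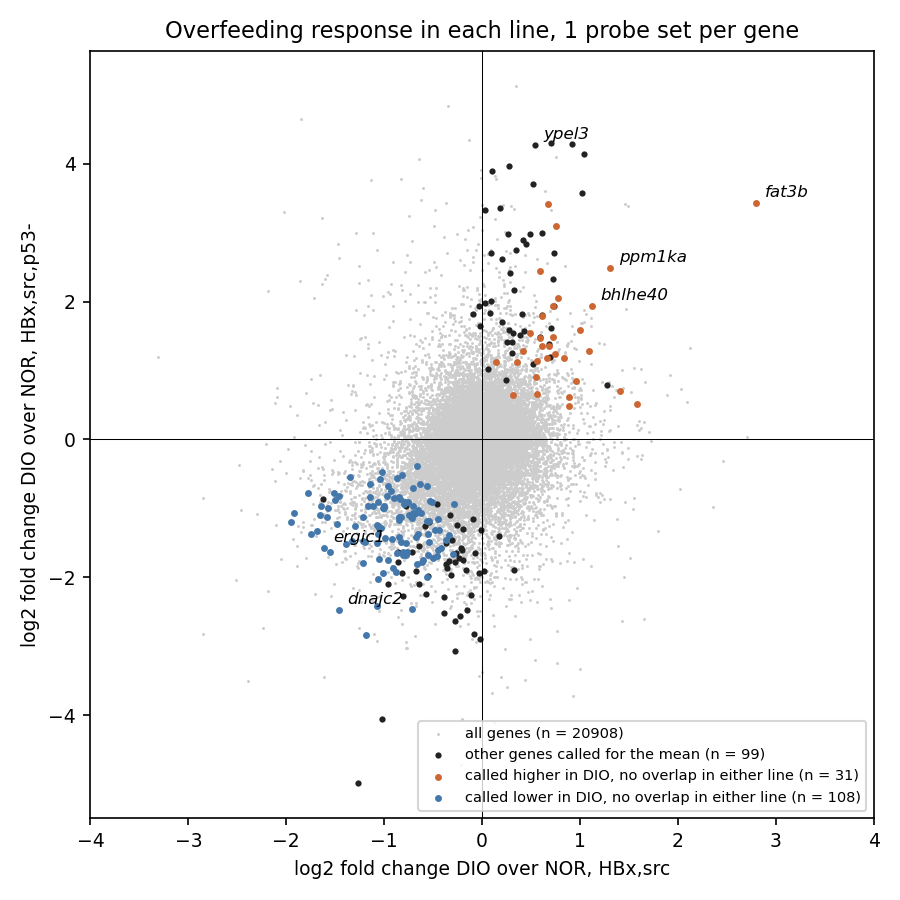
Log2 fold change of DIO over NOR in HBx,src (x axis) against that in HBx,src,p53- (y axis) for 20908 genes. Grey points are all genes, black points are called for the mean over lines without the separation of arrays, and orange (31) and blue (108) points are called genes whose NOR and DIO arrays overlapped in neither line, higher and lower in DIO. The blue points at the lower left outnumber the orange ones at the upper right, and the cloud of all genes is wider along the y axis. The log2 signals of HBx,src,p53- arrays also spread wider, so sizes may not be on like scales.

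The scatter of the changes in each line shows where the common response lay. It was lopsided toward genes that were lower in DIO, and fat3b had the largest change of the 31 that were higher. Of those 31 genes 3 were in a pathway list, 2 in a list added later and 26 in none, and of the 108 lower genes these numbers were 12, 12 and 84, so the lists below cover a minority of the common response. The signals of fat3b, a giant cadherin of the FAT family that takes part in cell contact and polarity, were 4.30, 4.72 and 3.66 in NOR and 7.06, 6.91 and 7.11 in DIO of HBx,src. In HBx,src,p53- they were 3.96 and 4.17 in NOR and 7.95, 6.89 and 7.64 in DIO. Every DIO array was at least 2 log2 units above every NOR array of its line. The mean change was 3.11 ± 0.38 log2 units, or 8.65-fold, with an adjusted p of 0.0069, and it was 2.80 in HBx,src and 3.43 in HBx,src,p53-. All 3 probe sets of fat3b were called, with changes of 3.11 to 3.52.

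Among the other genes that rose in both lines was ppm1ka, a mitochondrial phosphatase that switches on the breakdown of branched-chain amino acids. Its signals in HBx,src were 4.76, 4.70 and 5.50 in NOR and 6.17, 6.60 and 6.10 in DIO, and in HBx,src,p53- they were 4.28 and 5.32 in NOR and 6.93, 7.47 and 7.45 in DIO. The groups were apart in both lines. The change was 1.89 ± 0.30 (adjusted p = 0.0186). The MAP kinase phosphatase dusp16 changed by 1.29 ± 0.21 (adjusted p = 0.0196), the transcription factor rfx7b by 1.18 ± 0.23 (adjusted p = 0.0338), and mepcea, which caps the 7SK RNA that holds back transcription elongation, by 1.01 ± 0.21 (adjusted p = 0.0425). The Rab regulator tbc1d10ab and the kinase lrrk2, both tied to membrane traffic, changed by 1.1 and 1.01 (adjusted p = 0.0464 and 0.0394).

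Of the 43 measured genes of the circadian clock list, 2 rose and 0 fell, against 0.373% and 0.765% of all genes. The signals of bhlhe40, a repressor that competes with the clock activators, were 6.86, 7.85 and 7.67 in NOR and 8.27, 8.81 and 8.66 in DIO of HBx,src. The HBx,src,p53- arrays had 6.72 and 6.81 in NOR and 8.71, 8.95 and 8.41 in DIO. Its NOR and DIO arrays did not overlap in either line, and the change was 1.52 ± 0.31 (adjusted p = 0.0366). The period gene per3, also a clock repressor, had signals of 6.07, 6.22 and 6.49 in NOR and 7.67, 8.0 and 7.33 in DIO of HBx,src, and of 8.12 and 7.44 in NOR and 8.68, 8.58 and 8.18 in DIO of HBx,src,p53-. It was higher in DIO in both lines, by a narrow margin in HBx,src,p53-, and changed by 1.05 ± 0.20 (adjusted p = 0.0318).

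A further gene of the clock, cipca, which encodes a protein that binds CLOCK and restrains it, was not on the list. Its signals were 2.78, 3.08 and 2.41 in NOR and 3.15, 3.78 and 3.69 in DIO of HBx,src, and 2.32 and 2.6 in NOR and 4.04, 5.01 and 4.47 in DIO of HBx,src,p53-. The groups were apart in both lines, as the rule that named it required, and its change was 1.41 ± 0.20 (adjusted p = 0.0152). The rest of the clock list was mixed. In all, 16 of its genes were higher and 12 lower in both lines, 15 went opposite ways, and the median change was 0.01, beside -0.005 over all genes. At an unadjusted p under 0.05 for the mean 15 of its genes passed, 8 of them lower, beside 18.4% and 12.3% of all genes. Among those that did not pass, chosen after their values were seen, nr1d2b was at 0.62 (1.13 in HBx,src and 0.11 in HBx,src,p53-, adjusted p = 0.0684) and the activator clockb at -0.59 (adjusted p = 0.0652). The labels give no hour of sampling, and whether it differed between diets was not tested.

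Genes of amino acid sensing at the lysosome appeared among those that rose. The signals of fnip1, a partner of folliculin in the control of mTORC1 and AMPK, were 4.36, 4.63 and 4.41 in NOR and 5.02, 5.74 and 5.53 in DIO of HBx,src. The HBx,src,p53- arrays had 4.57 and 4.95 in NOR and 5.87, 5.66 and 5.31 in DIO. Its change was of like size in the lines, 0.96 and 0.85, with a mean of 0.91 ± 0.16 (adjusted p = 0.0254). A subunit of GATOR2, the complex that relays amino acid supply to mTORC1, is encoded by wdr59. It had signals of 4.14, 4.05 and 4.62 in NOR and 4.97, 5.01 and 5.06 in DIO of HBx,src, and of 5.25 and 4.87 in NOR and 6.41, 6.20 and 6.30 in DIO of HBx,src,p53-.

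For both genes the diets were apart in both lines, as the rule that named them required. The change of wdr59 was 0.99 ± 0.17 (adjusted p = 0.0238), while its other probe set was at 0.32 and did not pass. A list of 39 genes of this pathway, drawn up after these values were seen and hence no evidence for it, held 3 genes that rose (wdr59, fnip1 and sesn1) and 0 that fell, beside 0.373% and 0.765% of all genes. Its median change was 0.00, with 14 genes higher and 11 lower in both lines. The Ragulator subunit lamtor5, chosen after its value was seen, was at -1.34 (adjusted p = 0.0573).

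Genes that make, fold, move and degrade proteins were lower in DIO as lists, and few of them passed singly. These lists were chosen with earlier results of these data known, so their counts are a description and no independent evidence. In ribosome biogenesis 57 of 60 measured genes were lower in DIO in both lines, in the proteasome 53 of 59, in ER protein folding 60 of 68 and in ER to Golgi transport 38 of 43, where 30.2% of all genes were lower in both lines. Over all probe sets, 3 genes of ribosome biogenesis, 4 of the proteasome, 0 of ER protein folding and 3 of ER to Golgi transport fell, and 0 genes of these lists rose, against 0.765% and 0.373% of all genes. At an unadjusted p under 0.05 for the mean, 48, 41, 40 and 24 genes of these lists were lower, beside 12.3% of all genes. In each line at that p, with both lower, there were 14, 14, 9 and 6 of them, beside 1.78% of all genes.

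**Figure D2:**
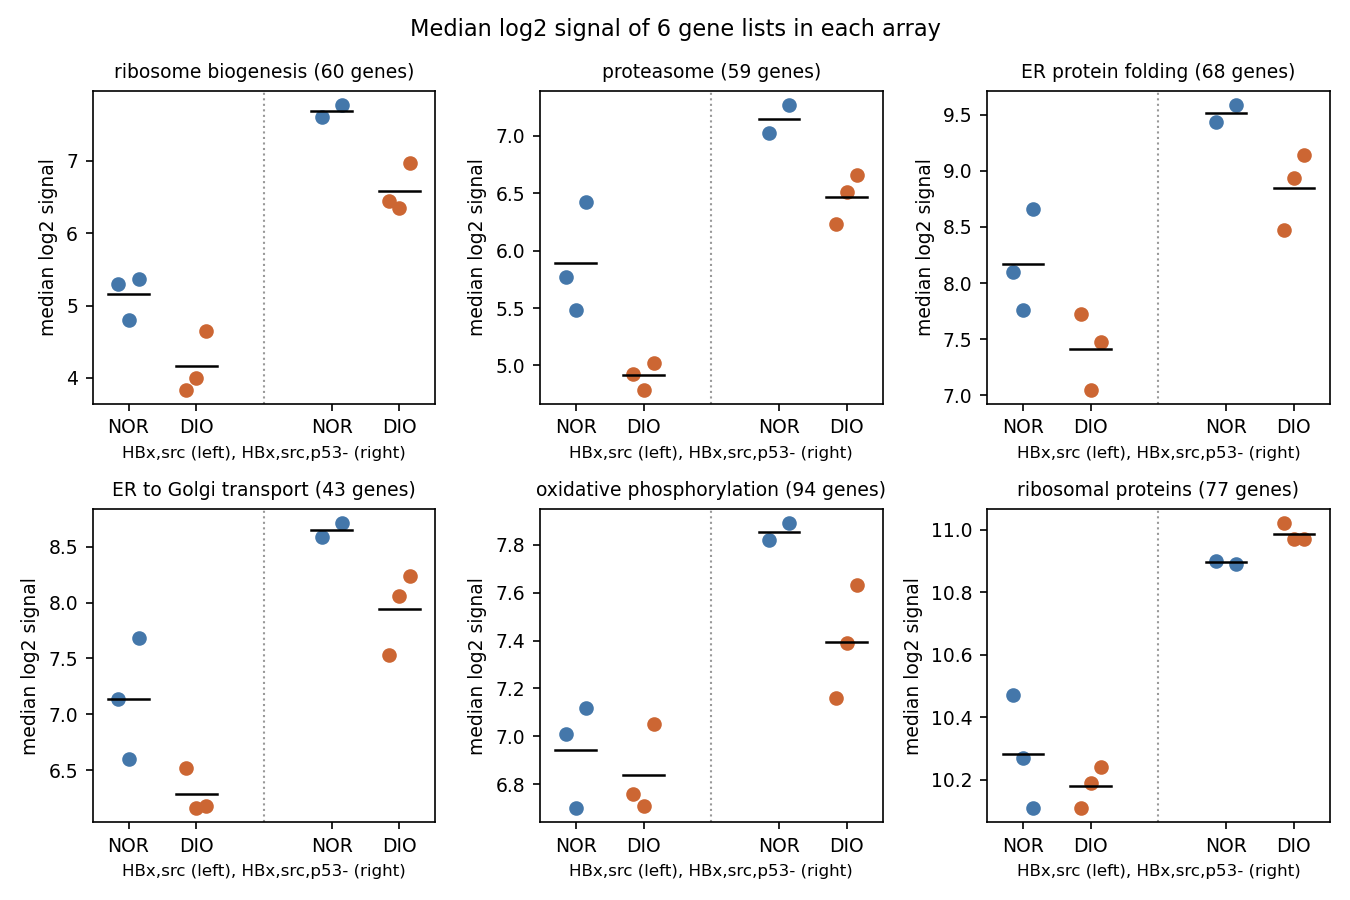
Median log2 signal over the measured genes of 6 lists (panels, number of genes in each title) in each of the 11 arrays, NOR in blue and DIO in orange, with the group mean as a bar. In ribosome biogenesis, proteasome, ER protein folding and ER to Golgi transport every DIO array lies below every NOR array of its line, while ribosomal proteins do not move together and oxidative phosphorylation overlaps in HBx,src. Levels are not comparable between the lines.

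Ribosome biogenesis had the lowest median of the lists, -1.01 log2 units (-0.77 in HBx,src and -1.11 in HBx,src,p53-), beside -0.005 over all genes. In HBx,src the median signal of the list was 5.29, 4.80 and 5.37 in the NOR and 3.84, 4.00 and 4.65 in the DIO arrays. The HBx,src,p53- arrays had 7.60 and 7.77 in the NOR and 6.44, 6.35 and 6.96 in the DIO arrays. Each DIO array was thus below each NOR array of its line, and this was so for 21 of the 60 genes singly in both lines, beside 3.49% of all genes. The plot of list medians by array shows the separation.

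The gene polr1c, a shared subunit of RNA polymerases I and III, had signals of 3.6, 3.76 and 4.06 in NOR and 2.62, 2.95 and 3.09 in DIO of HBx,src, and of 6.62 and 6.51 in NOR and 5.33, 4.99 and 5.05 in DIO of HBx,src,p53-. It was lower in every DIO array and fell by 1.18 ± 0.22 (adjusted p = 0.0297). The other called genes were noc3l, an assembly factor of the large ribosomal subunit (-1.23, adjusted p = 0.0354), and utp3, a factor of the small subunit (-1.26, adjusted p = 0.0442), whose arrays overlapped in HBx,src. Just past the threshold, and chosen after their values were seen, lay nip7 (-1.60, adjusted p = 0.0544), gnl3, the nucleolar protein nucleostemin (-1.59, adjusted p = 0.0624), and dkc1, the pseudouridine synthase dyskerin (-1.90, adjusted p = 0.0925).

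Genes outside the list were sbds and dnajc2. For sbds, which readies the large subunit for translation, the signals were 6.09, 5.50 and 5.76 in NOR and 4.75, 4.56 and 4.15 in DIO of HBx,src, and 6.84 and 7.02 in NOR and 5.62, 5.14 and 6.27 in DIO of HBx,src,p53-. It fell by 1.27 ± 0.23 (adjusted p = 0.0276), by 1.3 in HBx,src and 1.25 in HBx,src,p53-. For dnajc2, a chaperone bound to ribosomes that assists new chains, they were 4.96, 3.97 and 5.05 in NOR and 3.66, 2.91 and 3.03 in DIO of HBx,src, and 8.05 and 8.42 in NOR and 5.53, 5.53 and 6.26 in DIO of HBx,src,p53-. It fell by 1.96 ± 0.40 (adjusted p = 0.0375). In neither gene did the groups overlap, as the rule that named them required. The kinase riok2, which completes the small subunit, was at -1.26 (adjusted p = 0.0322), and was chosen after its value was seen.

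The ribosomal proteins themselves did not follow. Of 77 genes 16 were higher and 15 lower in both lines, beside 27.4% and 30.2% of all genes, and 46 had opposite signs. The median was -0.05 (-0.20 in HBx,src and 0.12 in HBx,src,p53-), beside -0.005 over all genes. The 1 gene of the 77 that fell, beside 0.765% of all genes, was rpl7l1 (-1.34, adjusted p = 0.0467). It encodes a protein related to a ribosomal protein and is itself an assembly factor. In HBx,src the median signal of the list was 10.47, 10.27 and 10.11 in NOR and 10.11, 10.19 and 10.24 in DIO. The HBx,src,p53- arrays had 10.90 and 10.89 in NOR and 11.02, 10.97 and 10.97 in DIO. The diets overlapped in HBx,src, and in HBx,src,p53- DIO was slightly the higher.

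The proteasome list had a median of -0.72, with -0.75 in HBx,src and -0.63 in HBx,src,p53-. Its median signal was 5.77, 5.48 and 6.42 in NOR and 4.93, 4.79 and 5.02 in DIO of HBx,src, and 7.02 and 7.27 in NOR and 6.23, 6.51 and 6.66 in DIO of HBx,src,p53-. The diets did not overlap in either line, and singly 28 of its 59 genes had no overlap and were lower in both, beside 3.49% of all genes. Called genes came from different pieces of the complex. From the lid, psmd7 had signals of 8.04, 7.37 and 8.71 in NOR and 6.83, 6.21 and 6.64 in DIO of HBx,src, and of 9.68 and 9.90 in NOR and 8.13, 8.45 and 9.09 in DIO of HBx,src,p53-. It fell by 1.36 ± 0.29 (adjusted p = 0.0453).

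Of the others, psma6a belongs to the core particle (-1.16, adjusted p = 0.0276), psme1 to the activator of the immune type (-1.31, adjusted p = 0.0331), and usp14 removes ubiquitin at the proteasome (-1.15, adjusted p = 0.0452). The signals of uchl3, a deubiquitinating enzyme outside the list, were 4.90, 4.30 and 4.70 in NOR and 3.43, 2.86 and 3.63 in DIO of HBx,src, and 6.18 and 6.51 in NOR and 4.41, 5.03 and 5.17 in DIO of HBx,src,p53-, a fall of 1.4 ± 0.24 (adjusted p = 0.0238). The enzyme uchl5, which docks on the proteasome and was chosen after its value was seen, was at -1.28 (adjusted p = 0.0369).

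In the secretory pathway the shifts were of like size. ER protein folding had a median of -0.65 (-0.69 in HBx,src and -0.60 in HBx,src,p53-), and ER to Golgi transport one of -0.70 (-0.66 and -0.82). The median signal of ER protein folding was 8.10, 7.76 and 8.66 in NOR and 7.72, 7.05 and 7.47 in DIO of HBx,src, and 9.44 and 9.59 in NOR and 8.47, 8.94 and 9.14 in DIO of HBx,src,p53-. The lowest NOR and the highest DIO array of HBx,src nearly met. No overlap and lower in both lines was found for 20 of 68 genes of ER protein folding and 9 of 43 of ER to Golgi transport, beside 3.49% of all genes.

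Among single genes of transport, ergic1, a protein of the compartment between ER and Golgi, had signals of 5.91, 5.53 and 6.31 in NOR and 4.79, 3.79 and 4.33 in DIO of HBx,src, and of 7.81 and 8.22 in NOR and 5.99, 6.75 and 6.58 in DIO of HBx,src,p53-. It fell by 1.59 ± 0.30 (adjusted p = 0.0283), and its change was nearly equal in the lines, -1.61 and -1.57. The coat proteins sec24c, which selects cargo leaving the ER (-1.14, adjusted p = 0.0251), and cope, of the coat that returns vesicles to the ER (-1.57, adjusted p = 0.0457), fell likewise. In napga, which helps to recycle the fusion machinery of membranes, the probe set used fell by 1.51 (adjusted p = 0.0276), but its other 2 probe sets did not pass, the least changed being at -0.05. The ER membrane thioredoxin relative tmx2b fell by 1.35 (adjusted p = 0.0298). In ER protein folding the genes nearest the threshold were derl1, which takes misfolded proteins out of the ER (-1.28, adjusted p = 0.0514), and dad1, of the enzyme that adds sugar chains (-0.93, adjusted p = 0.0551).

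Genes of sugar chain and lipid anchor synthesis in the ER, chosen after their values were seen, were among the 108 lower genes. The mannosyltransferase alg9 was at -1.37 (adjusted p = 0.0396), the anchor enzyme subunit pigf at -1.49 (adjusted p = 0.024) and the hexosamine enzyme pgm3 at -1.19 (adjusted p = 0.035). In pigf the signals were 6.18, 5.35 and 6.70 in NOR and 4.41, 3.97 and 4.10 in DIO of HBx,src, and 7.34 and 7.65 in NOR and 5.91, 6.63 and 6.73 in DIO of HBx,src,p53-. Here, unlike in most called genes, the change was larger in HBx,src (-1.92) than in HBx,src,p53- (-1.07), though the difference between lines did not pass (0.85 ± 0.53, adjusted p = 0.651).

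**Figure D3:**
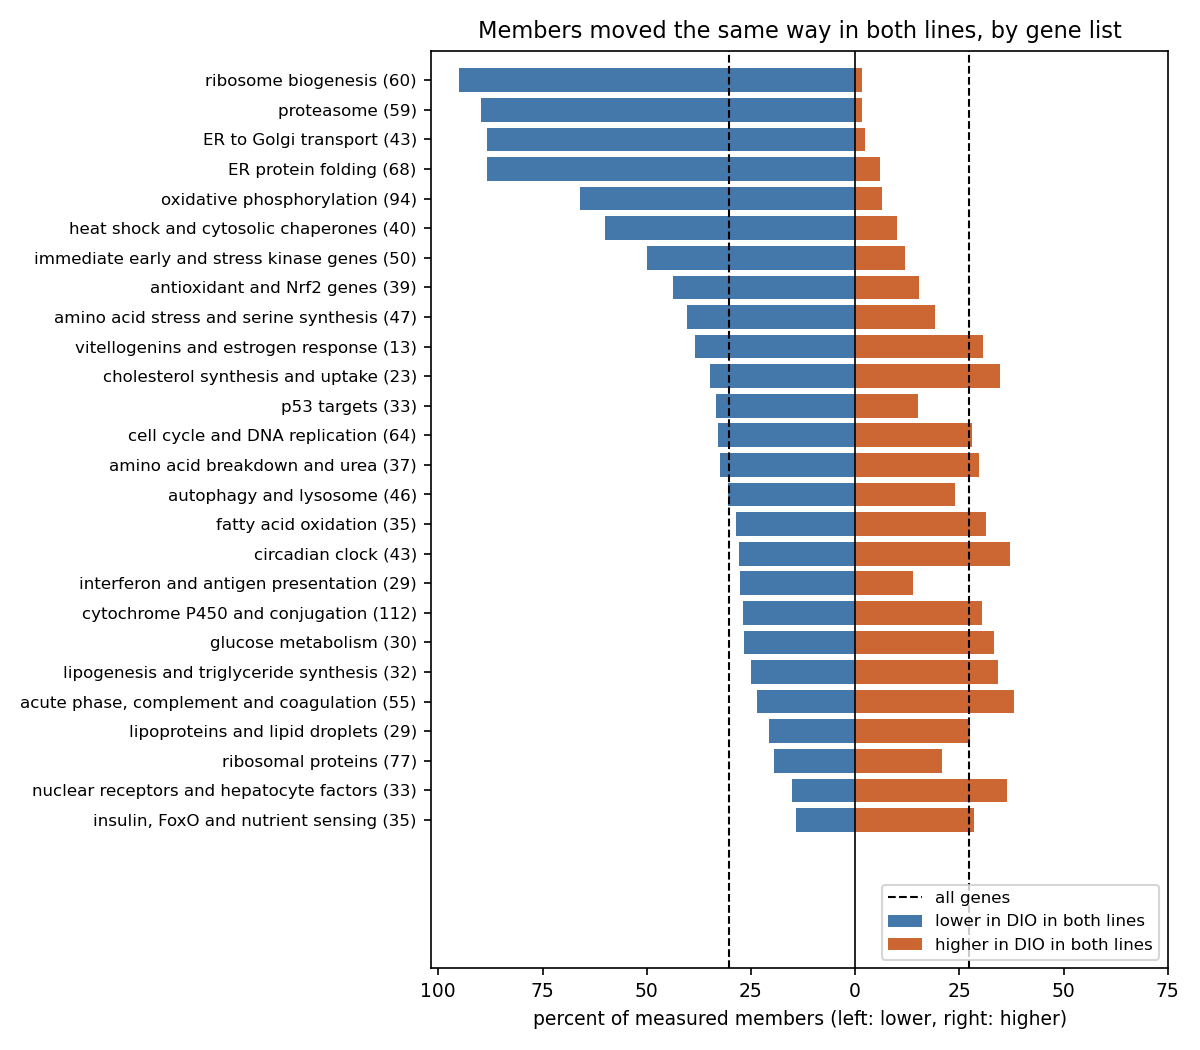
Percent of the measured genes of each of 26 lists that were lower (left) or higher (right) in DIO in both lines by the sign of the log2 fold change. Dashed lines mark all 20908 genes, 30.2% lower and 27.4% higher. Ribosome biogenesis (57 of 60), proteasome (53 of 59), ER protein folding (60 of 68) and ER to Golgi transport (38 of 43) stand far beyond the line on the left, and metabolic lists lie near both lines. The lists were chosen with earlier results of these data known.

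RNA processing was a further group among the lower genes. The signals of magoh, a core protein of the exon junction complex, were 7.49, 7.10 and 7.88 in NOR and 6.27, 5.63 and 5.93 in DIO of HBx,src. For HBx,src,p53- they were 9.57 and 10.28 in NOR and 7.78, 8.03 and 9.08 in DIO, and it fell by 1.59 ± 0.32 (adjusted p = 0.0354). For sf3b5, a subunit of the SF3b complex that recognises the branch point of introns, they were 5.02, 4.34 and 4.44 in NOR and 2.93, 2.84 and 2.80 in DIO of HBx,src, and 5.47 and 5.65 in NOR and 4.12, 3.50 and 4.94 in DIO of HBx,src,p53-. It fell by 1.56 ± 0.31 (adjusted p = 0.0358), while its other probe set was at -0.63 and did not pass. Neither gene had overlapping groups in either line, as the rule that named them required.

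After these values were seen, a list of 55 spliceosome genes was drawn up, which is a description and no evidence of its own. Of its genes 47 were lower in both lines and 2 higher, 10 fell and 0 rose, and the median was -0.69. Over all genes 30.2% were lower and 27.4% higher in both lines, 0.765% fell and 0.373% rose. The 10 include snrpg, an Sm protein shared by the spliceosomal particles (-1.22, adjusted p = 0.0186), prpf19, a ubiquitin ligase of the active spliceosome (-1.21, adjusted p = 0.0338), and rbm8a, the partner of magoh (-0.62, adjusted p = 0.0453). In HBx,src the DIO signals of snrpg were 2.13, 2.11 and 1.96, about the array median, so the size of its fall there is uncertain. The list median was 4.79, 4.83 and 5.15 in NOR and 4.16, 4.14 and 4.35 in DIO of HBx,src, and 6.49 and 6.46 in NOR and 5.80, 5.82 and 6.05 in DIO of HBx,src,p53-. The diets were apart in both lines. Of other genes of RNA synthesis chosen in the same way, polr2c, a subunit of RNA polymerase II, was at -1.36 (adjusted p = 0.0174) and mettl3, which methylates adenosines in messenger RNA, at -1.0 (adjusted p = 0.0465).

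Mitochondrial genes were lower to different degrees. Oxidative phosphorylation had a median of -0.32, with -0.15 in HBx,src and -0.44 in HBx,src,p53-. Of its 94 genes 62 were lower in both lines, beside 30.2% of all genes. Its median signal was 7.01, 6.70 and 7.12 in NOR and 6.76, 6.71 and 7.05 in DIO of HBx,src, which overlap, and 7.82 and 7.89 in NOR and 7.16, 7.39 and 7.63 in DIO of HBx,src,p53-, which do not. The 1 called gene of the 94, beside 0.765% of all genes that fell, was atp5f1e, a small subunit of the ATP synthase (-1.25, adjusted p = 0.0464). Its arrays overlapped in HBx,src. The membrane anchor sdhdb of succinate dehydrogenase was at -0.87 (adjusted p = 0.0721). Outside the list, the import chaperone timm8b, with signals of 8.42, 7.80 and 8.42 in NOR and 6.90, 6.54 and 7.03 in DIO of HBx,src and of 9.98 and 10.16 in NOR and 7.74, 8.81 and 9.10 in DIO of HBx,src,p53-, fell by 1.46 ± 0.32 (adjusted p = 0.0464).

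In the mitochondrial ribosome mrpl43 fell by 1.51 ± 0.32 (adjusted p = 0.0452), and its arrays were apart in both lines. A list of 67 genes of that ribosome was drawn up after this value was seen. It had 60 genes lower and 0 higher in both lines, beside 30.2% and 27.4% of all genes, and a median of -0.68. In it 3 genes fell (mrpl43, mrpl54 and mrps23), beside 0.765% of all genes. Chosen after their values were seen, cox20, an assembly factor of cytochrome oxidase, was at -1.40 (adjusted p = 0.0174), rfk, which makes flavin cofactors, at -2.01 (adjusted p = 0.0266), and cs, the citrate synthase, at -1.23 (adjusted p = 0.0373). The value of rfk was the lowest of the 108 genes. In HBx,src its signals were 7.12, 7.08 and 7.67 in NOR and 6.26, 6.46 and 5.60 in DIO, and in HBx,src,p53- they were 9.98 and 10.30 in NOR and 5.81, 7.77 and 8.32 in DIO. The first DIO array of HBx,src,p53- stood well below the others.

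**Figure D4:**
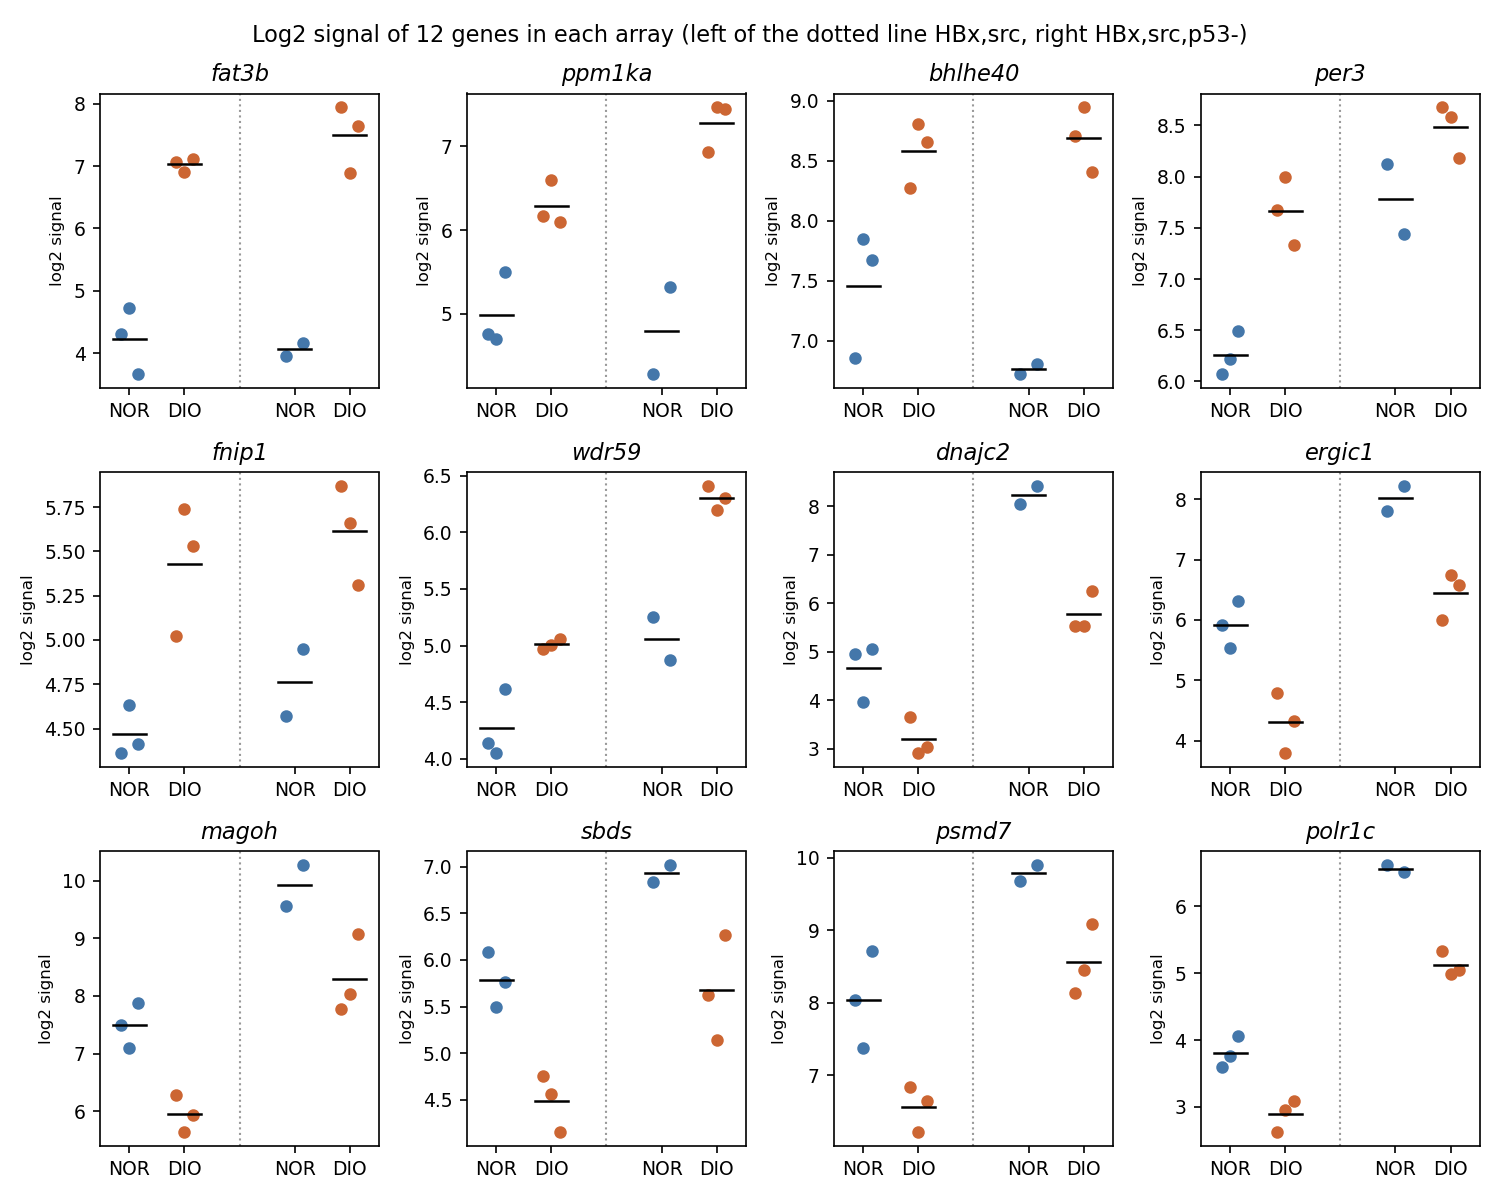
Log2 signal of 12 called genes in each of the 11 arrays, NOR in blue and DIO in orange, with HBx,src on the left and HBx,src,p53- on the right of each panel and the group mean as a bar. In each panel the diets do not overlap in either line: fat3b, ppm1ka, bhlhe40, per3, fnip1 and wdr59 are higher in DIO, and dnajc2, ergic1, magoh, sbds, psmd7 and polr1c are lower. All but polr1c were named by a rule that required this separation, so it is no result of its own. Levels are not comparable between the lines.

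Stress and growth lists held at most 1 called gene each, beside the 0.765% of all genes that fell. Among 40 genes of heat shock and cytosolic chaperones 24 were lower and 4 higher in both lines (median -0.43), beside 30.2% and 27.4% of all genes. Of these 40 genes 0 passed, against 16 at an unadjusted p under 0.05 in limma, beside 18.4% of all genes. The closest was hspb1 (-0.87, adjusted p = 0.0511). In the antioxidant list 1 of 39 genes fell, prdx1, a peroxide-reducing enzyme (-1.11, adjusted p = 0.035). In the immediate early list 1 of 50 fell, the shear-responsive factor klf2a (-0.98, adjusted p = 0.0452), whose value was -0.24 in HBx,src and -1.72 in HBx,src,p53-. Of the 50 genes 25 were lower and 6 higher in both lines, beside 30.2% and 27.4% of all genes. Only 4 of the 50, all lower, had an unadjusted p under 0.05 for the mean in limma, beside 18.4% of all genes. The array medians of this immediate early list were 3.88 to 4.57 in NOR and 3.15 to 3.68 in DIO of HBx,src. In HBx,src,p53- they were 4.83 to 5.03 in NOR and 4.26 to 4.41 in DIO, so the diets were apart in both lines. The cell cycle list gave 1 of 64 genes, cdk2, the kinase of S phase entry. Its signals were 2.57, 3.24 and 3.38 in NOR and 2.29, 1.86 and 1.51 in DIO of HBx,src, and 4.63 and 4.10 in NOR and 3.17, 3.51 and 3.53 in DIO of HBx,src,p53-. It was lower in every DIO array and fell by 1.07 ± 0.21 (adjusted p = 0.0354). In HBx,src its DIO signals lay about the array median or below, so the size of the fall there is uncertain. The replication clamp pcna was at -1.55 (adjusted p = 0.0562). The cell cycle list as a whole had a median of -0.01, but the lines went opposite ways, with -0.27 in HBx,src and 0.20 in HBx,src,p53-. Its array medians were 2.17 to 2.68 in NOR and 2.03 to 2.17 in DIO of HBx,src, which met. In HBx,src,p53- they were 2.74 to 2.81 in NOR and 3.0 to 3.27 in DIO, with DIO the higher and no overlap. The median signal of a whole array was 2.095 to 2.212 in HBx,src and 2.604 to 2.684 in HBx,src,p53-. Much of the list thus lay near the array median, and the sizes of these changes are uncertain.

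Metabolic lists did not show a common direction. None of the genes of lipogenesis (32), cholesterol synthesis (23), fatty acid oxidation (35), glucose metabolism (30), lipoproteins (29) or amino acid breakdown (37) passed the test of limma (0 called), against 6, 2, 7, 7, 6 and 5 of them at an unadjusted p under 0.05, beside 18.4% of all genes, and the medians lay between -0.11 and 0.07. In lipogenesis 11 genes were higher and 8 lower in both lines, and in fatty acid oxidation 11 and 10. In HBx,src,p53- the array medians were lower in DIO without overlap for glucose metabolism (-0.89), amino acid breakdown (-0.84) and lipogenesis (-0.39). These are DIO minus NOR of the mean array medians, and they were -0.07, 0.05 and 0.07 in HBx,src, with overlap. The median change over their genes in HBx,src,p53- was 0.08, -0.24 and -0.01. The other metabolic lists overlapped in both lines. By smallest p, amino acid breakdown was led by tdo2a, which opens the breakdown of tryptophan (0.54, adjusted p = 0.0776), lipogenesis by lpin2, a phosphatidate phosphatase (0.71, adjusted p = 0.0808), lipoproteins by apoa4b.1, an apolipoprotein gene (0.86, adjusted p = 0.082), and cholesterol synthesis by hmgcrb, the limiting enzyme (-1.13, adjusted p = 0.0872). The genes named second by the rule were srebf1 in lipogenesis (0.63, adjusted p = 0.111) and insig1 in cholesterol synthesis (1.06, adjusted p = 0.234). For gpam, the first enzyme of triglyceride synthesis, which was chosen after its value was seen, the arrays did not overlap in either line and the change was -1.76 ± 0.51 (adjusted p = 0.111). Other lists gave 0 calls too. The medians were 0.02 in acute phase, complement and coagulation (55 genes, 2 at an unadjusted p under 0.05 in limma), 0.02 in cytochrome P450 and conjugation (112, 14), 0.02 in autophagy and lysosome (46, 14), -0.20 in amino acid stress and serine synthesis (47, 15), 0.00 in vitellogenins and estrogen response (13, 2) and -0.05 in interferon and antigen presentation (29, 1). At that p 18.4% of all genes passed, a share that amino acid stress and serine synthesis and autophagy and lysosome exceeded. In amino acid stress and serine synthesis 12 of the 15 were lower, and in autophagy and lysosome 8 of the 14, beside 12.3% of all genes. In both lines 19 genes of the former were lower and 9 higher, and 14 and 11 of the latter. Among 33 targets of p53 1 rose, sesn1, and 0 fell, beside 0.373% and 0.765% of all genes. Their median was -0.22, beside -0.005 over all genes. Of them 5 were higher and 11 lower in both lines, beside 27.4% and 30.2% of all genes.

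Insulin signaling and nuclear receptor genes were called for the mean, and in most of them the change was small in HBx,src. Of the 7 called genes the difference between lines passed for ypel3 only, and its adjusted p was 0.0625 to 0.163 for the other 6. Of 35 genes of insulin, FoxO and nutrient sensing 4 rose (ypel3, sesn1, insra and irs1) and 0 fell, and of 33 nuclear receptors and hepatocyte factors 3 rose (rxrgb, ppardb and nr1h5) and 0 fell, beside 0.373% of all genes higher. The nuclear receptor list as a whole had a median change of 0.15 in each line, with 12 genes higher and 5 lower in both. Its array medians were 5.92 to 6.15 in NOR and 6.16 to 6.55 in DIO of HBx,src, which nearly met. In HBx,src,p53- they were 6.35 to 6.94 in NOR and 7.16 to 7.51 in DIO, so the diets overlapped in neither line. The insulin receptor gene insra was at 0.03 in HBx,src and 1.98 in HBx,src,p53-, its adaptor irs1 at 0.18 and 3.35, the mTORC1 inhibitor sesn1 at 0.45 and 2.83, and the fatty acid receptor ppardb at -0.02 and 1.64. In each of these genes the arrays overlapped in HBx,src. The exception was rxrgb, a retinoid X receptor that partners other nuclear receptors. Its signals were 5.55, 6.15 and 5.69 in NOR and 6.16, 6.32 and 6.69 in DIO of HBx,src, which meet but do not overlap, and 5.39 and 5.44 in NOR and 7.64, 7.86 and 8.05 in DIO of HBx,src,p53-. It changed by 1.51 ± 0.18 (adjusted p = 0.00611), by 0.59 in HBx,src and 2.44 in HBx,src,p53-.

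Relatives of the insulin pathway outside the list, chosen after their values were seen, were among the 31 genes that rose with no overlap. The kinase pdpk1a, which switches on AKT, was at 4.24, 4.88 and 4.94 in NOR and 5.33, 5.44 and 5.31 in DIO of HBx,src, and at 3.76 and 3.03 in NOR and 6.69, 6.97 and 6.77 in DIO of HBx,src,p53-. Its change was 2.04 ± 0.40 (adjusted p = 0.0352), larger in HBx,src,p53- (3.41) than in HBx,src (0.67), with a difference that did not pass (2.74 ± 0.81, adjusted p = 0.223). The insulin receptor substrate irs4a changed by 0.85 ± 0.17 (adjusted p = 0.039).

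The test of the difference between lines singled out genes whose response was not of like size in the lines. The gene ypel3, of the insulin, FoxO and nutrient sensing list, changed by 0.54 in HBx,src and by 4.27 in HBx,src,p53-, a difference of 3.73 ± 0.55 (adjusted p = 0.023). Its signals were 4.98, 5.12 and 3.97 in NOR and 4.85, 5.54 and 5.30 in DIO of HBx,src, which overlap, and 2.39 and 2.44 in NOR and 7.5, 6.34 and 6.21 in DIO of HBx,src,p53-, which do not. The kinase sgk1, a target of insulin and glucocorticoids, went opposite ways, with 0.77 in HBx,src and -3.24 in HBx,src,p53-. The centrosome gene alms1 was at -0.03 and 1.93, mbip at -0.38 and 1.50, and the transfer RNA modifying enzyme qtrt2 at 0.33 and -1.89. In HBx,src qtrt2 was at 1.91 to 2.55, about the array median, where a fall of that size could not have shown. Since batch and line coincide, these differences cannot be told apart from differences between batches.

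**Figure D5:**
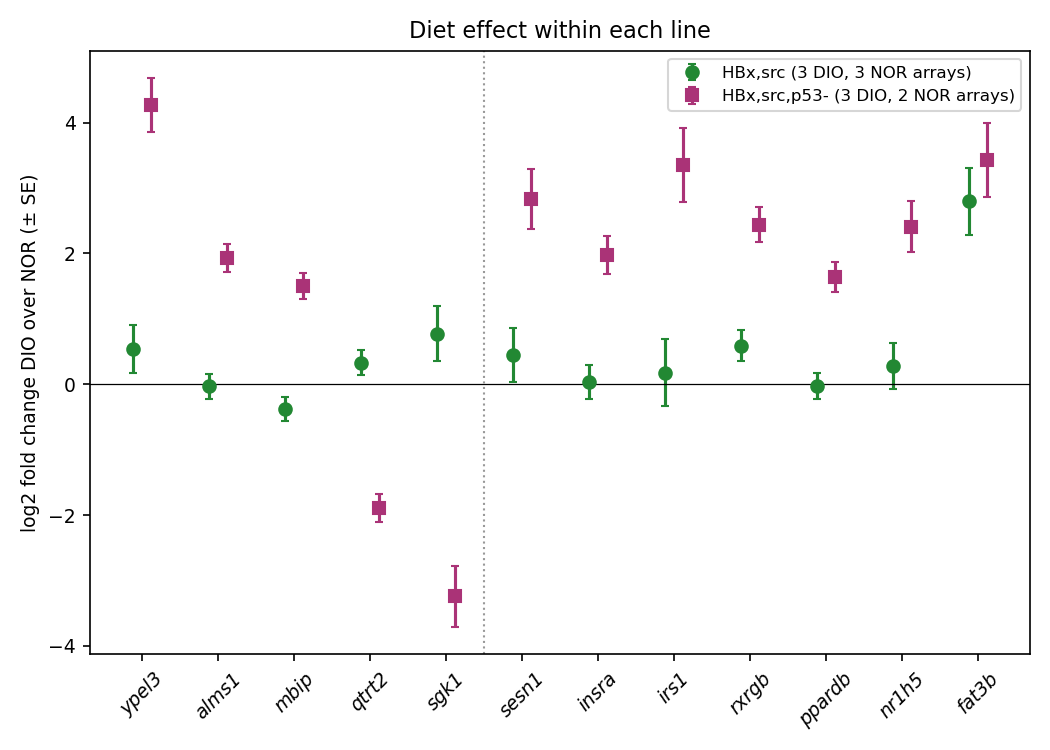
Log2 fold change of DIO over NOR with its standard error in HBx,src and HBx,src,p53- for the 5 named genes called for the difference between lines (ypel3, alms1, mbip, qtrt2, sgk1) and for 7 genes called for the mean. The former and sesn1, insra, irs1, ppardb and nr1h5 lie between -0.38 and 0.77 in HBx,src, while fat3b is at 2.80 and 3.43.

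Markers of other cell types were read as well, since bulk RNA cannot tell a change in the number of cells from a change in RNA per cell. None of the genes of the 13 marker lists passed in limma (0 called). At an unadjusted p under 0.05 for the mean 0 to 5 genes per list passed, beside 18.4% of all genes. That share was exceeded by the red blood cell (4 of 12), endothelium (5 of 19), muscle (4 of 17) and biliary (2 of 9) lists. Of these genes 3, 4, 1 and 2 were lower, beside 12.3% of all genes. The 22 exocrine pancreas genes had a median change of 0.59 (0.13 in HBx,src and 1.15 in HBx,src,p53-). Of them 15 were higher in both lines, beside 27.4% of all genes. Their median signal was 4.13 to 5.38 in NOR and 3.89 to 5.87 in DIO of HBx,src, and 5.31 to 6.66 in NOR and 6.39 to 8.78 in DIO of HBx,src,p53-, which overlap. Among 24 ovary genes the median was -0.12 in HBx,src and 0.65 in HBx,src,p53-, and among 12 red blood cell genes 0.07 and -0.81. The array medians of the ovary list in HBx,src,p53- were 2.17 to 2.25 in NOR and 2.37 to 3.56 in DIO, and those of the red blood cell list 4.57 to 4.85 and 3.75 to 4.01, with no overlap in either. In NOR the ovary list lay below the median of the whole array, 2.604 to 2.684, so the size of its change is uncertain. The other lists had median changes of 0.2 or less in size, but some array medians were apart in 1 line. In HBx,src,p53- the macrophage and neutrophil list differed by -0.49 and the endothelium list by -0.36 (DIO minus NOR, mean of the array medians), and in HBx,src the stellate cell list differed by -0.29 and the hepatocyte list by 0.13. With overlap, the macrophage and neutrophil list differed by -0.58 and the exocrine pancreas list by 0.32 in HBx,src. The part of these cells in the changes above was not tested.

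The changes also ran with signal level. When genes were split into 10 equal groups by their mean signal, the median change was 0.06 to 0.09 in the 4 dimmest groups and -0.19 to -0.22 in the groups 7 to 9, and it was -0.13 in the brightest. The medians of the 4 lists of protein handling lay below all of these values. The share of the called probe sets that were higher in DIO was 36% as deposited, and it was 51.8% after quantile normalization and 46.6% after cyclic loess within each batch. The part of array scaling in the number of lower genes was not tested further.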

How the data were processed

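Liver RNA was hybridised to ZebGene 1.1 ST arrays. The authors deposited log2 signals per probe set and array, made in Transcriptome Analysis Console. The log2 scale was read from the values. Their summarisation and normalization, the software version and the genome build were not given in any source used here. Precision is limited by the number of arrays. Of 75212 probe sets, 30358 had 1 gene symbol in the platform annotation, 1015 had several and 43839 were not listed. A gene was read from its brightest probe set (20908 genes, 6449 with several). Values of 14289 probe sets equalled those of another.

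All 17 arrays entered 1 limma fit (version 3.58.1 in R 4.3.3) with a mean for each group and empirical Bayes moderation, which the methods of the study also name (residual df 11, prior df 2.67). Adjusted p values are Benjamini-Hochberg over all probe sets, called under 0.05. The fit was tested on simulated data. Counts were made in pandas 2.3.3 and figures in matplotlib 3.10.9, under Python 3.11.15.

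Genes named were the 12 highest and 12 lowest by the smaller of the 2 changes among called genes with no overlap in either line, up to 4 called members of each of 39 lists, filled up to 2 by smallest p, the 5 smallest p for the difference, and fabp10a, vtg2 and 1 gene that is not reported here. Some list members that this rule named are not described above. Others are said to be chosen after their values were seen. Members and lists were chosen with earlier results of these data known, and 3 lists were added here. Alternatives covered the arrays fitted, normalization, dim or equal probe sets, moderation, weights, a replicate block and leaving out each array. Promoter motifs were not analysed here.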

Additional observations from a re-analysis of the deposited data

Results flagged for a closer look

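In 5 genes the effect of the diet differed between the lines by the test of the difference itself (limma, adjusted over all probe sets). The difference, HBx,src,p53- minus HBx,src, was 3.73 ± 0.55 log2 units for ypel3 (adjusted p = 0.023), with no overlap of the diets in HBx,src,p53-. For alms1 it was 1.96 ± 0.29 (adjusted p = 0.0211) and for mbip 1.88 ± 0.27 (adjusted p = 0.0207). For qtrt2 it was -2.22 ± 0.28 (adjusted p = 0.0132), and for sgk1 -4.01 ± 0.62 (adjusted p = 0.029), where NOR and DIO arrays overlapped in neither line and the directions were opposite. The genes called for the difference numbered 13, and those with clone names or larger p are not described. With the replicate block 0 of the 5 genes passed, and leaving out 1 array kept 2 to 5 of them. The lowest counts, 2 of 5, came without NOR 2 or DIO 3 of HBx,src or NOR 1 of HBx,src,p53-. In HBx,src qtrt2 lay about the array median, so the size of its difference is uncertain. Batch and line cannot be told apart.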

How the results depend on the processing

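None of the 238 called genes changed sign for the mean under any alternative (0 of 238). This was in large part fixed in advance. Other moderation, fewer probe sets, each line on its own or leaving out Oligo-Fucoidan arrays cannot alter a gene's mean change. The genes were also called in these same arrays, so the count is no test of their direction. Of 42 list medians 16 had the other sign under some alternative, all lists with few or no calls, cholesterol synthesis ranging from -0.31 to 0.26, lipogenesis from -0.15 to 0.07 and the clock from -0.09 to 0.11. After quantile normalization the balance of calls turned, with 408 of 787 higher. The medians of the 5 lower lists kept their direction and moved by less than 1 SD between arrays. Leaving out 1 array they ranged from -1.11 to -0.92 in ribosome biogenesis, -0.81 to -0.60 in the proteasome, -0.76 to -0.59 in ER protein folding, -0.86 to -0.53 in ER to Golgi transport and -0.38 to -0.26 in oxidative phosphorylation. The last reached -0.19 under the other settings.

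Counts of called probe sets were less stable. For the mean over lines (794) they were 2280 with each line fitted on its own, 3950 with inverse-variance weights, 521 with 1-symbol probe sets only and 409 with a trended, robust prior. Of these, 2046, 3347 and, for the prior, 368 had the same direction in both lines (732). At an unadjusted p under 0.05 in each line (903) there were 585 with 1-symbol probe sets. HBx,src (5) gave 1 with only NOR and DIO arrays, 1 with each line on its own, 1 with 1-symbol probe sets, 3 with cyclic loess (chosen after seeing the data) and 3 with the prior. HBx,src,p53- (2192) gave 679 with each line on its own and 964 with 1-symbol probe sets. The difference (81) gave 241 with only NOR and DIO arrays, 414 with each line on its own, 12 with 1-symbol probe sets and 37 with equal probe sets counted once.

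Titles share replicate numbers, and same-numbered NOR and DIO arrays had correlations of their deviations of -0.063 to 0.098 over 5 pairs. Deviations within such small groups are not independent, so these values cannot decide whether the numbers pair the arrays. With the replicate block the mean gave 264 calls, 237 of them in the same direction, HBx,src 0 and the difference 8.

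Leaving out 1 array gave 225 to 1437 calls for the mean, 177 to 1337 in the same direction, 494 to 1169 at p under 0.05 in each line, 0 to 11 in HBx,src, 681 to 2695 in HBx,src,p53- and 29 to 152 for the difference. For the mean, the arrays that moved it by over 1.5 times were NOR 1 (225), NOR 3 (245), DIO 1 (346), DIO 2 (287), DIO 3 (375) and DIO with Oligo-Fucoidan 1 (1437) of HBx,src, and NOR 1 (285), NOR 2 (238) and DIO 1 (482) of HBx,src,p53-. Without NOR 2 of HBx,src,p53-, 24 of the 238 genes were still called. Over 29 alternatives fat3b, cipca, ypel3 and rxrgb were called in 29, ppm1ka in 28, dusp16 in 27, wdr59 in 26 and sbds in 23, but psmd7 in 15, mrpl43 in 11, rpl7l1 in 10 and atp5f1e in 9.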

Other observations

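All genes in these paragraphs were picked once their values were known. The stress-linked chaperone fkbp5, a target of glucocorticoids, was at 9.30, 7.05 and 9.03 in NOR and 4.10, 3.97 and 8.77 in DIO of HBx,src, and at 10.08 and 9.89 in NOR and 6.60, 6.56 and 8.32 in DIO of HBx,src,p53-. Its change of -2.83 ± 0.77 did not pass (limma, adjusted p = 0.0923), and 1 DIO array of HBx,src kept a NOR level.

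The probe set of src had signals of 5.04, 5.77 and 5.0 in NOR and 4.98, 4.84 and 4.33 in DIO of HBx,src, and of 6.56 and 6.85 in NOR and 5.49, 4.96 and 4.68 in DIO of HBx,src,p53-. The groups did not overlap in either line, though barely apart in HBx,src, and the change was -1.11 ± 0.45 (adjusted p = 0.262). The sources do not say whether this probe set reads the transgene. The dynein light chain dynll1 fell by 1.74 ± 0.25 (adjusted p = 0.0153), and was called under all 29 alternatives.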
